A study of Homo sapiens with 12 samples.

Results

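Both control groups of an RNA sequencing study of BACH1 in AsPC-1 cells were set side by side: siCont, the controls of a transfection experiment, and sgCont, the controls of a gene editing experiment. The 6 control libraries were taken by their sample labels from the 12 libraries of the study, 3 per group, and their 2 count tables were joined by gene identifier. AsPC-1 is a long-used human cell line from a pancreatic ductal adenocarcinoma. The labels give the genotype of both groups as control. Per the labels' protocols, the siRNA experiment used the lipid reagent Lipofectamine RNAiMAX and a harvest 24 hours after transfection, and the guide experiment used the lentiCRISPR v2 vector, which carries Cas9, the guide RNA and puromycin resistance, with selection in 10 µg/ml puromycin. The other 6 libraries, siBACH1 and sgBACH1, come from the same pair of experiments and target BACH1. They share no library with the controls. The sequences of the control siRNA and the control guide, and whether sgCont cells were a pool or 1 clone, were not found in the sources at hand. Transfection, infection, drug selection, time in culture, count table and sequencing run all follow the groups, so they cannot be told apart as sources of any difference below. The labels do not state whether replicates came from separate cultures, so the p-values reflect a spread among libraries that could be technical.

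The protocol texts name the BACH1 siRNA and the BACH1 guide alone, so that siCont received a control siRNA with the same lipid, and sgCont a control guide with the same virus and drug, is inferred from the group names and the shared protocols. In general, a control siRNA is loaded into the RNA interference machinery without a matching transcript, and the lipid carrier itself is taken up by the cells. A control guide brings Cas9 into the genome with an integrating virus, and puromycin, which ends protein chains early on the ribosome, removes the cells that were not infected. AsPC-1 cells keep an epithelial character, with simple keratins, mucin-type surface proteins and carcinoembryonic antigens. BACH1 is a heme-regulated repressor of antioxidant genes that competes with the activator NRF2 at shared DNA sites.

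The 6 libraries held 13099706 to 18773195 counts assigned to genes. Between 22635 and 25077 genes had a count in siCont libraries and between 20780 and 22503 in sgCont libraries. Across 14408 tested genes, the correlation of log2 CPM (counts scaled by library size to a fixed total) was 0.989 between siCont replicates 1 and 3 but 0.974 between either of them and replicate 2, so siCont replicate 2 stood apart within its group. It ran from 0.964 to 0.973 among sgCont libraries and from 0.916 to 0.941 between the groups. Every pair of replicates differed by more than sampling noise, with a chi-square per degree of freedom of 8.9 or more. Markers of ductal carcinoma cells summed to 14201 to 16626 CPM in siCont and 21098 to 22660 CPM in sgCont, and 13 of their 15 genes were tested. No acinar marker passed the filter on low counts, and the 12 acinar genes summed to less than 1 CPM in every library (0.418 to 0.929 in siCont, 0.108 to 0.651 in sgCont). Endocrine markers summed to 2.51 to 3.26 and 2.13 to 4.04 CPM, endothelial markers to 33.3 to 54.7 and 49.3 to 69.7 CPM, and markers of the kidney line used to package lentivirus to 2.1 to 4.24 and 3.66 to 4.09 CPM. Fibroblast markers (291.8 to 299.3 and 115.3 to 140.9 CPM) were nearly all LUM, the matrix proteoglycan lumican, at 294.4 ± 4.4 and 123.5 ± 12.3 CPM (SD, n = 3 each). Blood cell markers (83.4 to 128.6 and 57.0 to 72.7 CPM) were mostly LYZ, lysozyme, which shares 34.0% of its exon bases with a gene on the other strand.

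BACH1, the gene under study, was present in both controls, and whether it was called higher in sgCont turned on siCont replicate 2 and on the correction used. It stood at 195.2, 286.1 and 193.9 CPM in siCont and at 269.1, 295.1 and 277.6 CPM in sgCont. The groups overlapped through siCont replicate 2. The mean was 225.1 ± 52.8 against 280.6 ± 13.2 CPM (SD, n = 3 each), a log2 difference of 0.34 that the two-sided exact permutation test gave p = 0.3, with 0.1 the smallest p that 3 against 3 allows. In edgeR's fit of all genes the log2 difference was 0.32 and BACH1 was not called (adjusted p = 0.106). It was called without siCont replicate 2 (0.52, adjusted p = 0.000126), with offsets for GC content and exon length (0.54, adjusted p = 0.0068) and with the replicate number as a block (0.34, adjusted p = 0.0417). Over all alternatives the log2 difference ran from 0.22 to 0.7, higher in sgCont in each. BACH1 lies on chromosome 21 from 29194071 to 29630751 (GRCh38, plus strand).

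Most genes were expressed in both controls at a like level. At least 1 CPM was found in all 6 libraries for 11811 genes, 10527 of them protein-coding. Their group means lay within 1 log2 unit of each other for 90.7% and within 0.5 for 66.8%. No count was found in any of the 6 libraries for 24421 of 57820 identifiers. Per kilobase of exon, the protein-coding genes with the highest levels were TMSB10, an actin monomer binder, S100A4, a calcium-binding protein linked to cell motility, and the linker histone H1-2. The 10 highest, a choice made after the values were seen, also held the keratins KRT8, KRT18 and KRT19 that build the cytoskeleton of simple epithelia, FTL, the light chain of the iron store ferritin, and the glycolytic enzyme GAPDH. TMSB10 stood at 4282 ± 364.5 CPM per kilobase in siCont and 3065 ± 130.0 in sgCont, and GAPDH at 1189 ± 41.1 and 1107 ± 25.7 (SD, n = 3 each). FTL at 1168 ± 24.9 and 1178 ± 67.7, and H1-2 at 1623 ± 148.7 and 1639 ± 30.6 CPM per kilobase, differed by less than the spread between replicates.

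The 10 genes with the smallest differences among those at 100 CPM or more were the respiratory chain genes NDUFB10 and MT-ND5, the GTPase-activating protein gene ARHGAP29, the signalling lipase PLCB3, the transcription regulators TCF20 and GPBP1L1, the peroxisomal ACBD5, the mitochondrial matrix protein C1QBP, the methyltransferase partner TRMT112 and the mRNA decay helicase DDX6. PLCB3 read 259.3, 262.2 and 260.6 CPM in siCont against 268.3, 259.7 and 254.7 in sgCont. NDUFB10 read 123.8, 120.9 and 125.4 against 125.5, 121.2 and 123.4 CPM. In both, the libraries of the groups interleaved, which the choice of the smallest differences favours. PLCB3 was lower in sgCont in a fit of protein-coding genes with offsets for GC content and exon length.

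**Figure D1:**
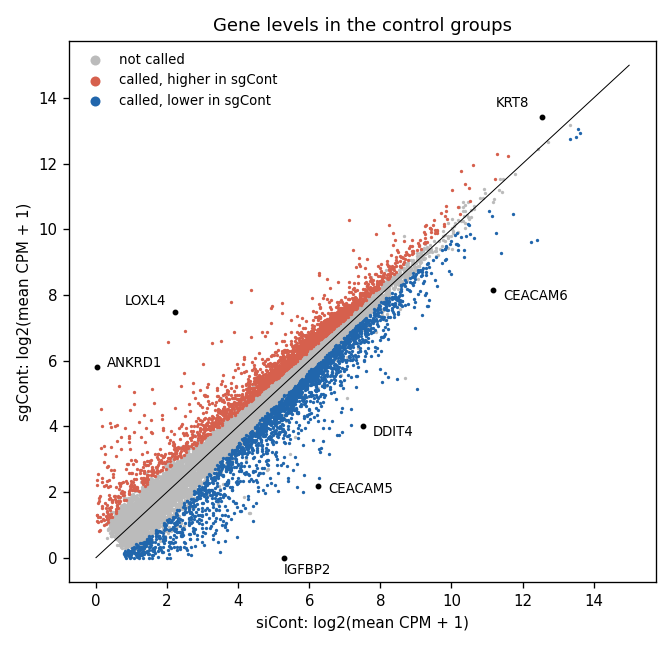
Mean level of each tested gene in siCont (x axis) and sgCont (y axis), both as log2(CPM + 1). Most of the 14408 genes lie near the diagonal, while ANKRD1 and LOXL4 stand far above it and IGFBP2, CEACAM5, CEACAM6 and DDIT4 far below.

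Where the baselines differed, the differences were many and ran both ways. Of 14408 genes tested with edgeR's quasi-likelihood test, 4469 were called at an adjusted p below 0.05, which is 31.0% of all tested. Of these, 2228 (15.5%) were higher in sgCont and 2241 (15.6%) lower, with a median log2 difference of 0.0 over all genes. Past 1 on the log2 scale, 572 were higher and 947 lower, together 10.5% of tested genes. The groups did not overlap for 6800 genes, 47.2% of those tested. All log2 differences below are sgCont minus siCont, and their standard errors (SE) come from the same fit. The least number of calls when a library was left out was 3218, without sgCont replicate 3.

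The same experiment difference was measured once more between the BACH1-targeted groups. Between siBACH1 and sgBACH1, 7246 of 14776 tested genes (49.0%) were called. Of the 4469 genes called between the controls, 4370 were tested there, and 2419 (55.4%) were called in the same direction, 513 (11.7%) in the opposite direction and 1438 were not called. Seen from the other side, 34.1% of the 7093 genes called there and tested here were called in the same direction and 7.23% in the opposite one. In 1 fit of all 12 libraries the difference between these differences was called for 3720 of 15644 genes (23.8%). A gene's value between the BACH1-targeted groups is given below as "in the BACH1-targeted pair". Those cells also differ from each other in how BACH1 was targeted.

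A few genes were found in 1 control group alone, with at least 1 CPM in its 3 libraries and fewer than 3 counts over the other group. Among 7 genes found in siCont, IGFBP2, a secreted binder of insulin-like growth factors (chromosome 2 from 216632828 to 216664436, GRCh38), had 623, 324 and 798 counts in siCont and 0 in each sgCont library. It was therefore at least 649.4-fold higher in siCont, taking 3 counts over the sgCont group as the floor. OXCT1, which activates ketone bodies for oxidation, had 136 counts against 0 (at least 50.6-fold higher), and the inflammatory cytokine IL1A had 124 against 0 (at least 46.1-fold higher). AGR3, a relative of the mucin-folding protein AGR2, had 81 against 0 (at least 30.1-fold higher) and the small Cajal body RNA SCARNA23 90 against 0 (at least 33.5-fold higher). The myelin protein gene PMP22 had 101 counts against 1 and UBXN10, a gene of cilia, 59 against 2.

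The gap was not the same in the BACH1-targeted cells. IGFBP2 had 2014 counts over siBACH1 and 30 over sgBACH1, so it was low in both guide-selected groups. AGR3 (143 and 9) and SCARNA23 (99 and 11) also had fewer counts in sgBACH1. IL1A had 56 and 39, and OXCT1 142 and 70, so their counts were above 0 in sgBACH1. PMP22 had 27 and 17. UBXN10 went the other way, with 7 counts over siBACH1 and 41 over sgBACH1.

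Of 6 genes found in sgCont alone, ANKRD1 was by far the most counted. It encodes a cardiac ankyrin repeat protein of the sarcomere and nucleus and is a much-used readout of the coactivators YAP and TAZ. The gene spans chromosome 10 from 90912096 to 90921276 (GRCh38, minus strand). It had 1160, 655 and 939 counts in sgCont and 0, 1 and 0 in siCont. The ratio after scaling was 2467, with a 95% counting interval of 442.4 to 97469, and counting error is all that this interval covers. CELF2, a splicing regulator, had 243 counts against 2 (ratio 108.8, interval 29.8 to 903.7). The noncoding RNAs LINC01508 (73 against 1) and DIO3OS (66 against 2) were at the edge of the rule, and the other two genes are not named here. In BACH1-targeted cells ANKRD1 had 1 count over siBACH1 and 40 over sgBACH1, so nearly all of its counts were in sgCont. CELF2 had 16 and 24 counts there.

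ANKRD1 leads a list of target genes of YAP and TAZ, which bind DNA through TEAD factors at the letters GGAATG. Of 25 list members 24 were tested, and 17 were higher in sgCont, none lower, with a median log2 difference of 1.09. The set beside it is all tested genes, with 15.5% higher and a median of 0.0. The count stayed between 16 and 18 higher when any 1 library was left out. In the BACH1-targeted pair 11 members were higher and 5 lower, with a median of 0.29. Fibroblasts express many of these genes too. Of 12 fibroblast markers LUM was lower, as given above, and the other 11 stood at 1.81 CPM (ACTA2) or less in each library. COL3A1 and DCN were highest in sgCont replicate 2, at 0.99 CPM each. The part of such cells was not tested.

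CCN1 and CCN2, matrix proteins secreted on YAP activity, were both higher in sgCont. CCN1 stood at 20.8, 31.2 and 16.7 CPM in siCont and 60.9, 64.0 and 98.0 in sgCont, a log2 difference of 1.70 (SE 0.25, adjusted p = 0.00063). CCN2, named after its values were seen, stood at 11.2, 9.86 and 11.0 CPM against 25.1, 23.7 and 30.4, a log2 difference of 1.30 (SE 0.18, adjusted p = 0.000226). The 6 libraries of each separated by group, as they did for 47.2% of all tested genes. Neither was called in the BACH1-targeted pair (0.29, adjusted p = 0.136, and 0.16, adjusted p = 0.434).

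TGFB2, a growth factor of the TGF-beta family, rose from 7.11 ± 1.14 to 58.4 ± 5.24 CPM (log2 difference 3.03, SE 0.17), though it shares 26.6% of its exon bases with a noncoding RNA on its own strand. The angiomotins AMOTL1 (26.0 ± 6.87 to 106.4 ± 1.12 CPM) and AMOTL2 (43.4 ± 6.27 to 151.0 ± 13.6), which hold YAP in the cytoplasm, rose as well. So did CAV1, the coat protein of caveolae (90.3 ± 35.2 to 361.3 ± 11.5 CPM), and the receptor tyrosine kinase AXL (169.3 ± 26.5 to 492.8 ± 26.3). YAP1 itself, named after its values were seen, stood at 135.7 ± 9.15 and 192.9 ± 13.9 CPM (log2 difference 0.51, SE 0.10, adjusted p = 0.00231). AXL and CAV1 were also higher in the BACH1-targeted pair (2.02 and 1.09), whereas AMOTL1 was at -0.25 (adjusted p = 0.0555) and YAP1 was lower (-0.24, adjusted p = 0.000778).

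The promoter windows of ANKRD1 and CCN2 are shown because they belong to the group of genes that moved together. Each is the 250 bases before the gene's start in RefSeq (GRCh38.p14), on the gene's own strand, with GGAATG in capitals. ANKRD1 is at chr10:90921088-90921337 (minus strand) with 2 matches and CCN2 at chr6:131951373-131951622 (minus strand) with 3.
ANKRD1: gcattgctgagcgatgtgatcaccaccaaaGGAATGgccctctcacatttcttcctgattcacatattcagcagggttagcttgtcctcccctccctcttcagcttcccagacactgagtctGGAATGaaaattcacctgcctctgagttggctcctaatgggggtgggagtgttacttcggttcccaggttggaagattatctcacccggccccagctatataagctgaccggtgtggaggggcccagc
CCN2: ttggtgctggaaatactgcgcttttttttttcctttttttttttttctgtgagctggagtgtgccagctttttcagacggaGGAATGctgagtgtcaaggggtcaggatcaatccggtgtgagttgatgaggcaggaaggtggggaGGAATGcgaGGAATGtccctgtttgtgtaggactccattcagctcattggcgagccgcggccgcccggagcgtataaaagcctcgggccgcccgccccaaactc
Searched on both strands (GGAATG or CATTCC), the motif was present in 11.9% of 35116 such windows and in 14.3% of 27305 genes. It was present in 10 of the 18 tested list members that have a window. The list was drawn from known targets, and a match is a description of letters, not of binding. TGFB2, AXL and AMOTL2 had 1 match each, and CAV1 and AMOTL1 had none in this window.

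Among genes outside that list, the largest rises were of low or absent genes in siCont. LOXL4, a lysyl oxidase that cross-links collagen and elastin, was the most counted of them. It stood at 2.72, 4.5 and 3.66 CPM in siCont and 167.1, 176.7 and 194.2 in sgCont, a log2 difference of 5.63 (SE 0.17, adjusted p = 4.67e-09). It was also higher in the BACH1-targeted pair (4.51). The atypical cadherin FAT4, an upstream part of the Hippo pathway, rose from 0.112 ± 0.147 to 22.3 ± 2.48 CPM, with 4, 0 and 1 counts in the siCont libraries and 458, 320 and 333 in sgCont.

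The kinase-dead ephrin receptor EPHB6 rose from 0.556 ± 0.464 to 36.2 ± 7.27 CPM, the cytoskeletal gene DPYSL3 from 0.306 ± 0.148 to 16.3 ± 2.02 and the calcium channel subunit gene CACNG6 from 0.333 ± 0.228 to 14.9 ± 6.01. The calcium-binding membrane protein gene MCTP1 rose from 0.2 ± 0.137 to 7.95 ± 1.08 CPM and the noncoding RNA SFTA1P from 0.0944 ± 0.0531 to 9.15 ± 1.49. Genes of transcription factors rose too, the repressor KLF12 (0.176 ± 0.0497 to 9.66 ± 2.19) and the melanocyte factor MITF (0.176 ± 0.197 to 6.6 ± 2.8). DPYSL3, CACNG6, MCTP1 and SFTA1P were between 4.49 and 5.36 higher on the log2 scale in the BACH1-targeted pair too.

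CEACAM5, the carcinoembryonic antigen used as a tumour marker, was among the 12 largest falls by rule. It stood at 78.9, 70.9 and 76.9 CPM in siCont and 5.33, 2.62 and 2.66 in sgCont. Its log2 difference was -4.39 (SE 0.24, adjusted p = 5.3e-07). CEACAM6, its close relative, stood at 2508, 1849 and 2591 CPM in siCont against 304.6, 268.1 and 278.1 (log2 difference -3.03, SE 0.13). CEACAM1 fell from 106.7 ± 9.26 to 27.4 ± 5.23 CPM. The CEACAM genes are near-identical in places, so how reads were split among them is uncertain.

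In sgBACH1 cells the 3 libraries held 2045, 1660 and 2431 counts of CEACAM5, against 99, 37 and 45 in sgCont, and CEACAM5 was not called in the BACH1-targeted pair (-0.14, adjusted p = 0.0949). Of 18 tested genes in the list of CEACAM and surface antigens, 8 were lower and 4 higher, with a median of -0.35 (-0.23 without sgCont replicate 2). The share called was 66.7%, against 31.0% of all tested genes. GPA33, an antigen of intestinal epithelium, fell from 239.8 ± 37.2 to 82.1 ± 5.11 CPM. Against that direction, the mesothelin gene MSLN rose from 153.3 ± 1.15 to 298.5 ± 26.6 and TM4SF4, a tetraspanin relative, from 94.3 ± 5.94 to 294.5 ± 7.93 CPM.

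Other genes among the largest falls have varied roles. The lipase inhibitor gene ANGPTL4 stood at 4.88, 7.77 and 3.31 CPM against 0.0538, 0.0 and 0.118, that is 227 counts against 3 (ratio 84.5, 95% counting interval 28.5 to 412.7). The muscle LIM protein gene FHL1 on the X chromosome fell from 4.97 ± 1.32 to 0.0897 ± 0.155 CPM, the choline transporter family gene SLC44A4 from 9.81 ± 0.844 to 0.387 ± 0.191 and the muscarinic receptor gene CHRM4 from 3.84 ± 0.821 to 0.173 ± 0.152. ABTB3, an ankyrin repeat and BTB domain gene, fell from 14.5 ± 5.95 to 0.558 ± 0.0786 CPM. TCIM stood at 1.81, 26.8 and 2.09 CPM in siCont and at 0.0, 0.141 and 0.237 in sgCont. Its level in siCont replicate 2 was far above the other siCont libraries, and its adjusted p of 0.0366 became 0.104, 0.129 and 0.0732 without sgCont replicates 1, 2 and 3. ANGPTL4 and CHRM4 were not called in the BACH1-targeted pair (adjusted p = 0.709 and 0.601), nor was TCIM (0.121).

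**Figure D2:**
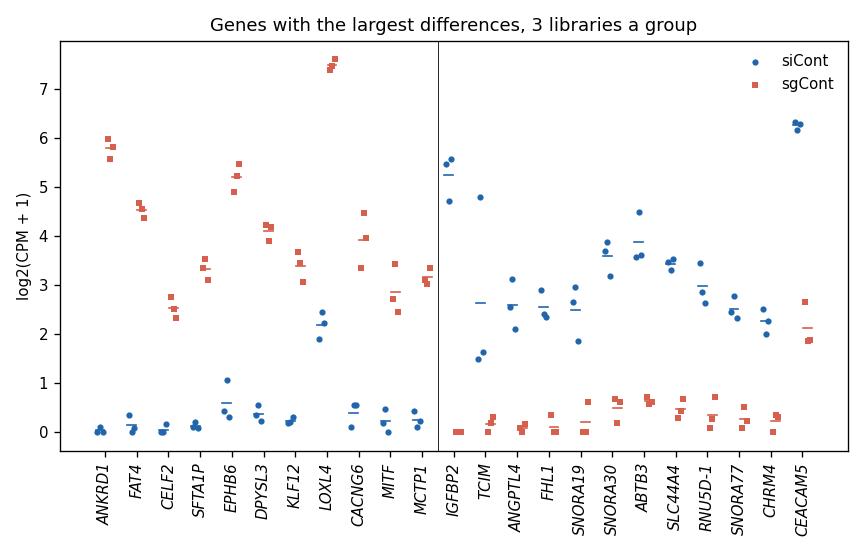
Levels of the reported genes among the largest rises and falls by rule in the 6 libraries, as log2(CPM + 1), with circles for siCont, squares for sgCont and bars for group means. The rule that picked these genes required the groups to be apart. For TCIM, siCont replicate 2 lies far above the other siCont libraries.

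Many short noncoding RNAs were lower in sgCont, to an extent that differed by family. They made up 4 of the 12 largest falls by rule: the H/ACA small nucleolar RNAs SNORA19, SNORA30 and SNORA77, which guide the conversion of uridine to pseudouridine, and RNU5D-1, a copy of the spliceosomal U5 RNA that aligns exons during splicing. SNORA30 stood at 12, 13.8 and 8.13 CPM in siCont and 0.592, 0.141 and 0.533 in sgCont (log2 difference -4.67, SE 0.44, adjusted p = 1.69e-05). RNU5D-1 stood at 10.0, 6.21 and 5.17 against 0.0538, 0.212 and 0.651 CPM (-4.52, SE 0.61). SNORA77 (-4.48, SE 0.60) and SNORA19 (-4.69, SE 0.91) were called lower as well. SNORA19 was no longer called with the replicate block and the offsets for GC content and length (-3.15, adjusted p = 0.0643), nor with these offsets and without siCont replicate 2 (-2.80, adjusted p = 0.0548). For all 4 RNAs every siCont library lay above every sgCont library, which the rule that named them required.

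The sequences below are shown because short RNAs did not all change alike. They are transcripts of GENCODE 29 on GRCh38, written 5′ to 3′ as DNA letters. In the H/ACA RNAs the capitals mark the ACA box, 3 bases from the 3′ end. SNORA19 is at chr10:119060011-119060138 (minus strand, 128 bases), SNORA30 at chr16:30710537-30710665 (plus strand, 129 bases) and SNORA77 at chr1:203729581-203729705 (plus strand, 125 bases).
SNORA19: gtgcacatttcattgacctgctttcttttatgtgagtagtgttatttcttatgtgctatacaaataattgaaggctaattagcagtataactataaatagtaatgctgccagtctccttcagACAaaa
SNORA30: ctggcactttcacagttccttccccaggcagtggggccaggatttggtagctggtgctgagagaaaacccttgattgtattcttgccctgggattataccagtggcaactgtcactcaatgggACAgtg
SNORA77: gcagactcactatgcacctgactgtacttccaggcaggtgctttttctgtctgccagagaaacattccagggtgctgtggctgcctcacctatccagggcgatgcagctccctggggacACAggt
Set against these are MT-TV, the mitochondrial transfer RNA for valine (mitochondrial bases 1602 to 1670, 69 bases), RNY1, a Y RNA bound by the Ro protein (chr7:148987136-148987248, minus strand, 113 bases), and RNA5-8SP2, a copy of 5.8S ribosomal RNA (chr16:34162959-34163110, plus strand, 152 bases), which was higher in sgCont.
MT-TV: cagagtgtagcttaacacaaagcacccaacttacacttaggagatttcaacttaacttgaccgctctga
RNY1: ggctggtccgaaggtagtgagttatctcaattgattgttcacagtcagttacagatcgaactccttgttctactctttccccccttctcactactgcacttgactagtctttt
RNA5-8SP2: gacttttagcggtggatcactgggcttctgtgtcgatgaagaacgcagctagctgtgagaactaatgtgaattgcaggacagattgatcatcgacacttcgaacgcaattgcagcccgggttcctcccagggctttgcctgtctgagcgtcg
No capitals are used in these last 3.

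MT-TV fell most among the transfer RNAs, from 547.9, 744.8 and 286.4 CPM in siCont to 44.7, 26.4 and 31.6 in sgCont (log2 difference -3.94, SE 0.44, adjusted p = 0.00203). RNY1 stood at 756.4, 934.9 and 581.8 CPM against 580.7, 524.5 and 657.1, overlapping, and was not called (-0.37, adjusted p = 0.0944). RNA5-8SP2 rose from 8129 ± 2687 to 23333 ± 3674 CPM per kilobase (log2 difference 1.52, adjusted p = 0.00529). It went the other way from the small nucleolar RNAs. The libraries were depleted of rRNA, so a copy of rRNA cannot serve as a size match for them. Near-identical copies of these RNAs are spread over the genome, so counts of single copies are uncertain and families are given next.

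By family, 55 of 61 tested H/ACA RNAs were lower in sgCont and none higher, with a median log2 difference of -2.56. Of 56 C/D small nucleolar RNAs, which guide methylation of ribose, 38 were lower (median -1.66), and of 17 Cajal body RNAs 12 were lower (median -1.94). Among the spliceosomal families 25 of 28 U1 genes and copies (median -3.12), all 16 of U2 (-3.37), all 7 of U4 (-2.48) and 6 of 7 of U5 (-3.58) were lower. Lower too were 11 of 12 mitochondrial transfer RNAs (median -2.93), 8 of 11 Y RNAs and copies (-1.75), 36 of 100 copies of 7SL, the RNA of the signal recognition particle (-1.13), and 12 of 46 copies of 7SK, an RNA that holds the elongation factor P-TEFb (-1.10). None of these families had a member called higher. Of all tested genes 15.6% were lower and 15.5% higher.

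Leaving out 1 library at a time left 49 to 55 H/ACA and 30 to 35 C/D RNAs lower. It moved some smaller counts by more than 1.5 times. Of the 7SL copies 18 to 28 were then lower, with the loss past 1.5 times without any siCont library or sgCont replicate 2. Of the 7SK copies 3 to 9 were lower, with such a loss without any siCont library or sgCont replicate 3. Of U4 3 to 6 were lower, with the loss without siCont replicate 1 or 3 or sgCont replicate 3. Of the Y RNAs 4 to 7 were lower, with the loss without siCont replicate 1 or 2 or sgCont replicate 3. In the BACH1-targeted pair the family medians were also below 0, and nearer to it than between the controls except for 7SL (-1.14). The difference of these medians was not tested. There 54 of 59 H/ACA RNAs were lower (median -1.38), 24 of 25 U1 (-2.01) and 9 of 12 mitochondrial transfer RNAs (-1.51), but 1 of 9 Y RNAs (-0.29). With offsets for GC content and exon length in each library, 35 H/ACA RNAs stayed lower (median -1.39), 11 C/D RNAs were lower and 6 higher (median -0.01), and RNY1 was higher (1.11, adjusted p = 2.1e-05). With them 4 mitochondrial transfer RNAs were lower and 1 higher (median -0.99), and 12 copies of 7SL were lower (-0.59). Of 7SK copies 1 was lower and 1 higher (-0.54), and of U4 2 were lower (-1.02). Of Y RNAs 0 were lower and 1 higher (-0.21). U1, U2 and U5 kept 20, 12 and 5 lower (-2.09, -2.28 and -2.0), and Cajal body RNAs 7 lower and 2 higher (-1.0). The sizes of these family differences and the direction for RNY1 thus depended on that correction.

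**Figure D3:**
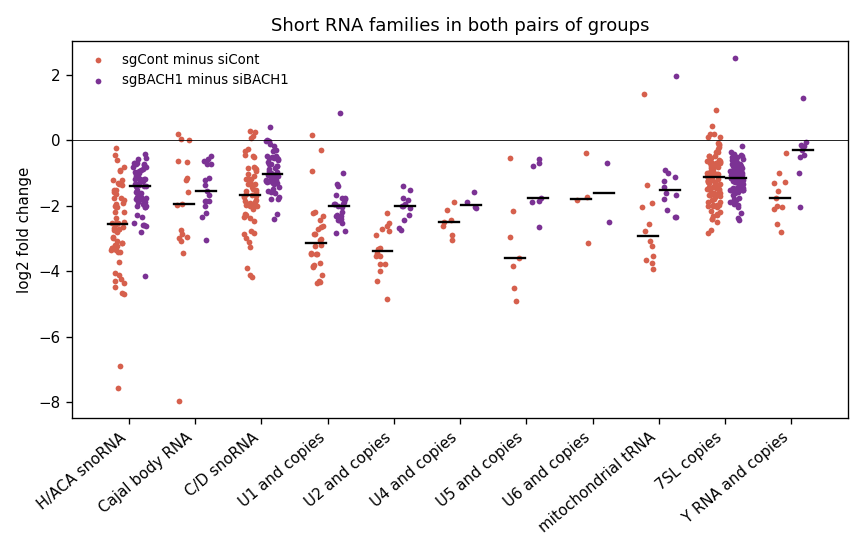
Log2 differences of short RNAs by family, each point a tested gene, for sgCont minus siCont and for sgBACH1 minus siBACH1, with bars at the medians. The H/ACA median is -2.56 between the controls and -1.38 between the BACH1-targeted groups.

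The same pattern was seen in shares of all counts. Small nuclear RNAs took 1.79%, 1.21% and 1.18% of counts in siCont and 0.255%, 0.204% and 0.24% in sgCont, and nucleolar and Cajal body RNAs 0.885% ± 0.138 against 0.316% ± 0.0176 (SD, n = 3 each). The 5.8S copies took 1.27% ± 0.346 against 4.04% ± 0.28, so siCont libraries held the larger share of snRNA and sgCont libraries the larger share of residual rRNA. BACH1-targeted libraries lay close by: 1.08% of counts were snRNA in siBACH1 and 0.281% in sgBACH1, and 0.952% and 4.48% were 5.8S copies. Over 15 classes the exact permutation test gave p = 0.1 at best, the smallest it can give, and 0.15 after Benjamini-Hochberg adjustment. By exon length, 178 tested genes of 100 to 200 bases had a median log2 difference of -2.53 and 641 genes of 500 to 1000 bases one of 0.07. The labels give a fragment range of 100 to 200 bp for every library of both groups. The share of residual rRNA moved with the difference by length, and the part of either was not tested.

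Longer noncoding RNAs were also mostly lower. Of 20 tested abundant noncoding RNAs, a list that includes some of the RNAs above, 13 were lower and 1 higher (0 higher without sgCont replicate 2). The share called was 70.0%, against 31.0% of all tested genes. SNHG1 and SNHG12, hosts of small nucleolar RNAs in their introns, fell from 644.9 ± 161.2 to 202.4 ± 10.7 and from 570.6 ± 129.9 to 167.6 ± 7.02 CPM. GAS5, another host, MALAT1 of nuclear speckles and NEAT1 of paraspeckles were named after their values were seen. GAS5 stood at 493.4 ± 136.3 and 199.6 ± 25.4 CPM, MALAT1 at 1459 ± 69.4 and 936.9 ± 57.7 and NEAT1 at 125.7 ± 7.19 and 80.1 ± 5.42, each called lower (adjusted p = 0.000571, 0.0002 and 0.000647). RMRP, the RNA of an RNase complex, was among the RNAs with the highest levels, at 44735 ± 4755 and 32013 ± 724.2 CPM per kilobase. Its log2 difference of -0.48 (SE 0.09) became 0.05 with the offsets for GC content and length. 7SK (31205 ± 1650 and 28162 ± 4362 CPM per kilobase) and the mitochondrial large rRNA MT-RNR2 (4310 ± 659.9 and 4120 ± 310.5) were not called, while RNU4-2 (34310 ± 7822 and 5613 ± 912.4) was lower.

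Epithelial genes moved both ways. Among 10 tested keratins 4 were higher and none lower, with a median of 0.27. KRT8 stood at 6177, 5497 and 6275 CPM in siCont and 10532, 10973 and 11373 in sgCont (log2 difference 0.87, SE 0.09, adjusted p = 2.44e-05), and its partner KRT18 rose from 2489 ± 310.6 to 5006 ± 410.5 CPM. These genes overlap each other's exons on opposite strands (16.3% of KRT18) and have many processed copies, so their exact counts are uncertain. KRT80 rose from 19.5 ± 8.24 to 286.6 ± 21 CPM, the largest keratin difference (3.89, SE 0.28), and KRT16, a keratin of stressed epidermis, from 4.2 ± 0.863 to 15.2 ± 2.37. Without sgCont replicate 2, 1 keratin was called lower and the median was 0.17. KRT8 and KRT18 were not called in the BACH1-targeted pair (0.04 and 0.06).

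Of 36 tested junction genes and epithelial factors, 13 were lower and 5 higher, with a median of -0.23. The count of higher genes fell to between 2 and 3 without siCont replicate 1 or any 1 of the sgCont libraries, and that of lower genes stayed between 10 and 15. The desmosomal cadherin DSG3 fell from 77.0 ± 10.6 to 4.4 ± 0.966 CPM (log2 difference -4.14, SE 0.19). EPCAM, an adhesion protein of nearly all carcinomas, stood at 1079, 986.8 and 982.7 CPM against 420.4, 401.3 and 384.4 (log2 difference -1.34, SE 0.08). The claudin CLDN7 fell from 135.9 ± 39.1 to 46.1 ± 0.928 CPM, and OVOL1, a repressor that holds the epithelial state, from 6.5 ± 3.04 to 1.26 ± 0.0804. ESRP2, a splicing factor of epithelia, went the other way, from 13.6 ± 4.97 to 44.3 ± 7.12 CPM. EPCAM and DSG3 were lower in the BACH1-targeted pair as well (-0.75 and -1.47).

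Most tested genes of mesenchymal cells were not called (35.0% called against 31.0% of all tested genes), and those called were mostly higher. Of 37 list members 20 were tested, of which 6 were higher and 1 lower, with a median of 0.09 (0.03 without sgCont replicate 3). THBS1, an adhesive matrix glycoprotein, stood at 23.3, 55.3 and 30.4 CPM in siCont and 163.1, 175.9 and 187.3 in sgCont (log2 difference 2.28, SE 0.30, adjusted p = 0.00112). ITGA5, the fibronectin receptor chain, rose from 6.83 ± 1.49 to 23.2 ± 2.59 CPM. The called fall was of SNAI2, a transcription factor that represses epithelial genes, from 57.3 ± 14.2 to 18.1 ± 1.04 CPM. Without siCont replicate 2 or 3, 2 members were called lower. In the BACH1-targeted pair THBS1 was lower (-0.65) and SNAI2 higher (0.43, adjusted p = 0.025).

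Adhesion to the matrix differed gene by gene. Of 20 tested integrins and laminins 4 were higher and 5 lower, and without siCont replicate 2 the count of higher genes was 8. Without sgCont replicate 1 or 2 the count of lower genes was 3. ITGB6, an epithelial integrin chain that activates TGF-beta, fell from 82.4 ± 22.3 to 26.0 ± 3.68 CPM and the laminin chain LAMA3 from 272.8 ± 112.7 to 106.3 ± 3.99. Of 18 tested matrix proteases (44.4% called) 7 were lower and 1 higher (2 higher without siCont replicate 2). Among them MMP7, matrilysin, fell from 229.1 ± 96.0 to 78.3 ± 8.88 CPM and the kallikrein KLK7 from 6.2 ± 1.15 to 1.17 ± 0.701. For LAMA3 and MMP7 siCont replicate 2 (402.6 and 339.3 CPM) was the highest library.

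Of 16 tested genes of mucins and secreted mucosal proteins 6 were lower and 2 higher, against 15.6% and 15.5% of all genes. Their median of -0.52 was -0.19 without siCont replicate 2. AGR2, a disulfide isomerase that folds mucins, stood at 734.7, 384.1 and 709.3 CPM in siCont and 280.4, 263.6 and 220.1 in sgCont (log2 difference -1.26, SE 0.24, adjusted p = 0.00692). The trefoil peptide TFF3 fell from 10.0 ± 3.52 to 1.75 ± 0.933 CPM, and in the BACH1-targeted pair it was higher by 3.36. The membrane mucin MUC1 rose from 29.3 ± 7.79 to 68.9 ± 6.66 CPM and was also higher in the BACH1-targeted pair (1.02). Of 11 tested S100 proteins 5 were lower and none higher, and 2 to 3 were lower without sgCont replicate 1 or 3. S100A10, the annexin partner, fell from 1152 ± 133.2 to 729.9 ± 39.8 CPM and S100A6 from 1236 ± 61.6 to 862.6 ± 45, whereas S100A4 was not called (adjusted p = 0.0908).

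Factors of pancreas and gut were mixed. Of 18 tested 6 were lower and 2 higher. That is 44.4% called, against 31.0% of all tested genes. HNF4G fell from 95.9 ± 0.183 to 41.9 ± 6.08 CPM, the nuclear receptor NR5A2 from 81.1 ± 1.45 to 36.3 ± 7.74 and the intestinal factor CDX2 from 32.0 ± 8.95 to 16.0 ± 2.27. TP63, the factor of basal and squamous epithelium, stood at 4.81, 13.0 and 4.82 CPM in siCont against 1.02, 0.848 and 0.77 (log2 difference -3.08, SE 0.47). GATA4 rose from 9.89 ± 0.889 to 21.6 ± 2.58 CPM. NR5A2, CDX2 and TP63 were lower in the BACH1-targeted pair too (-1.22, -2.33 and -2.45), and without siCont replicate 1, siCont replicate 3 or sgCont replicate 1 only 1 factor was called higher.

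**Figure D4:**
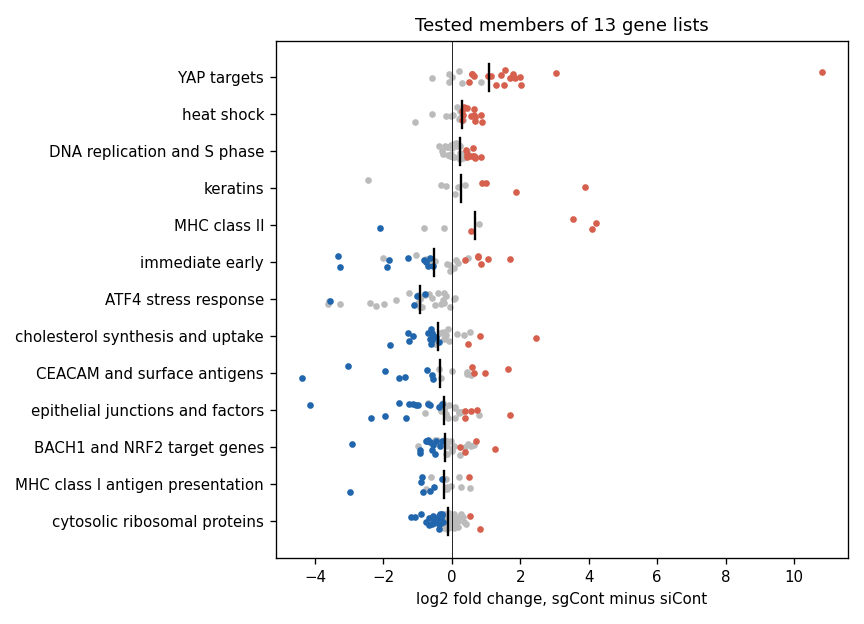
Log2 differences (sgCont minus siCont) of the tested members of 13 gene lists, coloured where called, with a bar at each list's median. The YAP target list has the highest median at 1.09, and the ATF4 list has a low median of -0.92 with 4 of 32 members called.

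Immediate early genes, which answer growth factors and stress within minutes, were split. Of 28 tested 10 were lower and 6 higher, with a median of -0.51. That is 57.1% called, against 31.0% of all tested genes. Without siCont replicate 2, 10 were lower and 9 higher with a median of -0.24. The orphan receptor NR4A1 stood at 16.2, 27.0 and 17.4 CPM in siCont and 1.67, 1.63 and 2.66 in sgCont (log2 difference -3.34, SE 0.30, adjusted p = 1.35e-05). FOS stood at 66.9, 73.1 and 68.3 against 15.8, 17.7 and 21.7 CPM (-1.91, SE 0.15), and JUNB fell from 102.6 ± 25.5 to 42.4 ± 3.19 CPM. The stress factor ATF3 fell from 7.09 ± 5.42 to 0.733 ± 0.125 CPM, and its level in siCont replicate 2 was 13.4 CPM. All 4 separated by group, which naming by the largest called changes favours. So did 47.2% of all tested genes. FOS was higher, not lower, in the BACH1-targeted pair (0.6, adjusted p = 0.000623), and JUNB was not called (0.04). CCN1, given above with the YAP targets, is also a member of this list and rose.

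ATF4 targets, which are induced when amino acids run short, showed a wide difference whose size and calls depended on 1 library. Of 32 tested members 4 were lower and none higher, with a median of -0.92. That is 12.5% called, against 31.0% of all tested genes. ASNS, CHAC1 and TRIB3 were named after their values were seen, to show it. ASNS, asparagine synthetase, stood at 115.3, 1024 and 105.1 CPM in siCont and 46.7, 36.3 and 46.2 in sgCont, so siCont replicate 2 was the highest by far. ASNS shares 44.6% of its exon bases with another gene on the same strand. CHAC1, which breaks down glutathione, stood at 4.88, 47.4 and 4.47 against 1.02, 2.12 and 1.48 CPM, and the pseudokinase TRIB3 at 33.3, 333.4 and 30.6 against 29.5, 24.3 and 30.6. None of these 3 was called (adjusted p = 0.113, 0.0839 and 0.239). Without siCont replicate 2 the list had 4 members higher, 10 lower and a median of -0.17. Without sgCont replicate 1 or 2 as few as 2 were lower.

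Of the 4 called members, DDIT4, an inhibitor of mTOR, stood at 92.1, 370.6 and 80.7 CPM against 14.1, 17 and 14.6. Its adjusted p of 0.0262 became 0.0612 and 0.0722 without sgCont replicates 1 and 2, and it shares 41.2% of its exon bases with an antisense gene. The transcription factor CEBPB fell from 65.5 ± 25.2 to 31.9 ± 1.51 CPM and the glutamine transporter SLC1A5 from 367.0 ± 71.7 to 210.5 ± 16.8. The GCN2 kinase gene EIF2AK4, which senses uncharged transfer RNA upstream of ATF4, and its partner GCN1 were higher in sgCont. GCN1 rose from 357.4 ± 30.5 to 639.9 ± 27.5 CPM and EIF2AK4 from 62.6 ± 5.37 to 105.2 ± 14.9. Those genes belong to a list of puromycin-relevant translation and ribosome stress, in which 3 of 19 tested were higher and 4 lower. Its share called was 36.8%, against 31.0% of all tested genes. GCN1 was lower in the BACH1-targeted pair (-0.19, adjusted p = 0.00498).

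Of 23 tested heat shock genes 12 were higher in sgCont, 11 were not called and none was lower, with a median of 0.31, and 7 to 11 were higher with 1 library left out, the counts without sgCont replicate 1 or 3 being lower by more than 1.5 times. FKBP4, a cochaperone of steroid receptors, stood at 172.8, 111.9 and 177.3 CPM in siCont and 280.1, 286.8 and 263.8 in sgCont (log2 difference 0.85, SE 0.15, adjusted p = 0.00171). HSPB1, the small heat shock protein, rose from 201.9 ± 38.4 to 321.9 ± 24.0 CPM, STIP1, which joins HSP70 to HSP90, from 300.5 ± 27.3 to 474.3 ± 24.2 and BAG3, a cochaperone of autophagy, from 26.7 ± 3.0 to 43 ± 0.917. HSP90AB1, named after its values were seen, stood at 910.6 ± 111.0 and 1347 ± 45.3 CPM (log2 difference 0.56, SE 0.10). FKBP4 and STIP1 were higher in the BACH1-targeted pair as well (0.73 and 0.61), and HSPB1 was lower (-0.24).

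Of 39 tested genes of DNA replication 10 were higher and none lower (median 0.23, and 0.12 without siCont replicate 2), and of 37 mitotic genes 11 were higher and 1 lower (median 0.13). The shares called, 25.6% and 32.4%, lay near the 31.0% of all tested genes. TK1, thymidine kinase of S phase, stood at 70.6, 67.7 and 65.9 CPM in siCont and 109.8, 120.9 and 136.4 in sgCont (log2 difference 0.85, SE 0.11, adjusted p = 0.000183). The helicase subunit MCM4 rose from 194.7 ± 35.4 to 311.0 ± 16.9 CPM, FOXM1, which drives mitotic genes, from 102.3 ± 18.1 to 173.5 ± 5.25, ECT2, which starts cytokinesis, from 112.9 ± 2.82 to 217.6 ± 28.6, and BIRC5, survivin, from 85.1 ± 5.72 to 148.0 ± 2.77. The kinetochore motor CENPE was lower, from 105.7 ± 9.23 to 58.7 ± 8.9 CPM. Without sgCont replicate 3 as few as 6 replication genes were higher, and without siCont replicate 2, 1 was lower. In bulk RNA, fewer cells in a phase and less RNA per cell cannot be told apart.

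Of 28 tested genes of cholesterol synthesis and uptake 13 were lower and 3 higher, with a median of -0.42. Their share called was 57.1%, against 31.0% of all tested genes. The count of lower genes was 8 without siCont replicate 3 or sgCont replicate 3. STARD4, a cytosolic carrier of cholesterol, fell from 50.7 ± 7.65 to 14.4 ± 4.24 CPM (log2 difference -1.82, SE 0.21), and the sterol enzyme NSDHL on the X chromosome from 52.0 ± 5.67 to 23.8 ± 2.9. INSIG1, which retains the sterol sensor, stood at 167.4, 66.5 and 153.6 CPM against 54.4, 51.1 and 52.9. Its adjusted p of 0.0198 became 0.0536 without siCont replicate 3 and 0.065 without sgCont replicate 2. The exporters split, with ABCA1 rising from 2.66 ± 0.925 to 14.4 ± 2.33 CPM and ABCG1 falling from 34.4 ± 16.4 to 14.6 ± 2.07.

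Of 26 tested genes of fatty acid metabolism 11 were lower and 7 higher. That is 69.2% called, against 31.0% of all tested genes. SCD, which puts the double bond into oleate, stood at 766.7, 731.7 and 730.2 CPM in siCont and 367.3, 320.2 and 355.5 in sgCont (log2 difference -1.10, SE 0.09, adjusted p = 5.34e-06). PLIN2, the coat of lipid droplets, fell from 22.3 ± 2.18 to 5.61 ± 2.31 CPM and ACSL1, which activates fatty acids, from 27.5 ± 2.6 to 6.14 ± 0.462. SCD and ACSL1 were lower in the BACH1-targeted pair (-0.45 and -0.83) and PLIN2 was not called there (-0.48, adjusted p = 0.0556).

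Hypoxia genes gave 8 lower and 3 higher of 23 tested (median -0.51). Of these 47.8% were called, against 31.0% of all tested genes. The oxygen-sensing hydroxylase EGLN3 fell from 13.1 ± 3.5 to 4.36 ± 1.05 CPM and was not called in the BACH1-targeted pair (0.31). Of 20 tested glycolytic genes (75.0% called) 9 were higher and 6 lower, with 5 higher without sgCont replicate 1 or 3 at the least. With offsets for GC content and exon length 6 were higher and 7 lower, and the median of 0.26 became 0.09. The aldolase isoform ALDOC fell from 20.4 ± 3.78 to 8.73 ± 3.1 CPM and PGK1, phosphoglycerate kinase on the X chromosome, from 983.8 ± 174.6 to 422.8 ± 18.

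Among genes of BACH1 and NRF2, 13 of 36 tested targets were lower and 4 higher, with a median of -0.21. Their share called was 47.2%, against 31.0% of all tested genes. The glutathione peroxidase GPX2 stood at 33.2, 25.0 and 29.7 CPM in siCont and 4.41, 3.54 and 3.61 in sgCont (log2 difference -2.92, SE 0.20, adjusted p = 2.17e-06), whereas in the BACH1-targeted pair it was higher (0.74). AKR1C1, an aldo-keto reductase with near-identical relatives, fell from 119.6 ± 10.7 to 62.9 ± 9.38 CPM and the microsomal transferase MGST1 from 139.8 ± 13.2 to 82.6 ± 7.78. The heme transporter SLC48A1 rose from 31.7 ± 3.36 to 75.7 ± 2.86 CPM. ALDH3A1 and HMOX1 were named after their values were seen. ALDH3A1, an aldehyde dehydrogenase, stood at 112.9 ± 16.5 and 182.8 ± 13.4 CPM (log2 difference 0.69, SE 0.12), and HMOX1, heme oxygenase, at 6.53 ± 0.557 and 9.03 ± 2.49 (0.47, adjusted p = 0.204). Of the factors themselves NFE2L3, a relative of NRF2, rose from 5.14 ± 0.657 to 24.6 ± 0.58 CPM. The count of higher targets was 2 at the least, without siCont replicate 1, sgCont replicate 1 or sgCont replicate 3.

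Interferon-stimulated genes were lower in 8 of 39 tested and higher in 4, with a median of -0.23. The share called, 30.8%, was near the 31.0% of all tested genes. Without siCont replicate 2, 6 were higher and 8 lower with a median of -0.10, and the median was -0.36 without siCont replicate 1 and -0.35 without siCont replicate 3. BST2, tetherin, which holds budding virus at the cell surface, stood at 16.7, 17.7 and 17.8 CPM in siCont and 2.8, 0.778 and 2.01 in sgCont (log2 difference -3.19, SE 0.35, adjusted p = 5.56e-05). TLR3, the endosomal sensor of double-stranded RNA, stood at 7.25, 12.7 and 10.2 against 1.88, 1.98 and 2.13 CPM (-2.32, SE 0.30), and the antiviral SAMD9L fell from 9.62 ± 1.83 to 2.28 ± 0.891. IFITM3, named after its values were seen, stood at 21.7 ± 5.86 and 41.0 ± 2.32 CPM (0.91, SE 0.18). BST2, TLR3 and SAMD9L were lower in the BACH1-targeted pair too (-1.31, -4.28 and -1.66). Without siCont replicate 1, sgCont replicate 1 or sgCont replicate 3 the count of higher genes was 2.

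Of 22 tested genes of nucleic acid sensing, 7 were higher and 4 lower. The cytidine deaminases stood out: APOBEC3G rose from 1.55 ± 0.876 to 19.3 ± 2.33 CPM, APOBEC3F from 1.55 ± 0.441 to 6.53 ± 1.43 and APOBEC3C from 32.5 ± 1.79 to 92.7 ± 7.23. These neighbours on chromosome 22 are close copies, so the split of reads among them is uncertain. In the BACH1-targeted pair APOBEC3G was higher (1.99) and APOBEC3C was not called (-0.11, adjusted p = 0.409). Of 13 tested genes of RNA interference 3 were higher and none lower, a share of 23.1% called against 31.0% of all tested genes. XPO5, which exports precursors of microRNA, was among the higher ones, from 80.6 ± 4.16 to 128.0 ± 15.5 CPM.

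Genes of antigen presentation were grouped by class. Of 8 tested genes of class II, 4 were higher and 1 lower, with 3 lower without siCont replicate 2. The share called was 62.5%, against 31.0% of all tested genes. CD74, the invariant chain, stood at 1.39, 0.0 and 0.465 CPM in siCont and 11.3, 13.1 and 10.7 in sgCont, CIITA, the master activator, rose from 0.213 ± 0.146 to 3.62 ± 1.17 CPM, and HLA-DRA from 0.391 ± 0.378 to 4.85 ± 2.29. These levels were low. Blood cells carry class II, and of their markers LYZ was called lower in sgCont (-0.67, adjusted p = 0.0112). That call was lost without sgCont replicate 2 or 3 (adjusted p = 0.0514 and 0.0665). It was also lost with offsets for GC content and exon length (0.0591). CD68 and CD14 were not called (-1.04 and -0.69). PTPRC, found on all white blood cells, stood at 2.05 CPM in sgCont replicate 2 and at 0.488 CPM or less in the other libraries. The part of such cells was not tested. CTSS, the protease that trims the invariant chain, fell from 49.9 ± 11.4 to 11.5 ± 4.76 CPM. Of 18 tested genes of class I (44.4% called), 7 were lower and 1 higher. B2M, its light chain, stood at 459.3, 543.7 and 457.7 CPM against 298.1, 342.7 and 305.4 (-0.63, SE 0.10, adjusted p = 0.000648), the trimming peptidase ERAP2 fell from 5.09 ± 1.12 to 0.641 ± 0.482 and the immunoproteasome subunit PSMB9 from 15.3 ± 1.04 to 8.52 ± 0.986 CPM. Without siCont replicate 2, 2 class I genes were called higher.

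Of 11 tested drug exporters 3 were higher and 1 lower, a share of 36.4% called against 31.0% of all tested genes. ABCC4 rose from 0.347 ± 0.359 to 5.37 ± 1.54 CPM. ABCG2, the breast cancer resistance protein, stood at 205.2, 242.0 and 187.2 CPM in siCont and 74.4, 68.4 and 64.5 in sgCont (log2 difference -1.61, SE 0.12, adjusted p = 2.85e-06). It was at 0.06 in the BACH1-targeted pair (adjusted p = 0.436). Of 23 tested targets of p53, 5 were lower and 1 higher, a share of 26.1% called. The count of lower targets was 2 without sgCont replicate 2 and 1 without sgCont replicate 3, and 2 were higher without siCont replicate 2. BBC3, the death protein PUMA, fell from 9.73 ± 5.32 to 2.45 ± 0.842 CPM and ZMAT3 rose from 5.4 ± 0.723 to 13.6 ± 3.49.

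Lysosomal genes were lower in 11 and higher in 4 of 33 tested, with 45.5% called against 31.0% of all tested genes. The glycosidases GAA and NEU1 rose, from 9.71 ± 3.3 to 29.1 ± 2.96 and from 0.966 ± 0.273 to 3.78 ± 1.08 CPM, while GLA and the membrane protein LAMP2, both on the X chromosome, fell. Without siCont replicate 1, siCont replicate 3 or sgCont replicate 2 the count of lower genes moved by more than 1.5 times, to 6 at the least. The manganese exporter SLC30A10 fell from 7.51 ± 1.36 to 1.53 ± 1.11 CPM within a list of metallothioneins and zinc genes with 2 lower of 12. That list's share called, 16.7%, was below the 31.0% of all tested genes.

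Housekeeping genes were no fixed baseline. Of 29 tested 9 were higher and 4 lower, 44.8% in all, against 31.0% of all tested genes. ACTB, beta actin, stood at 2892, 3529 and 2908 CPM in siCont and 4803, 4435 and 5359 in sgCont (log2 difference 0.65, SE 0.10, adjusted p = 0.000788), and the tubulin TUBB rose from 924.6 ± 134.9 to 1504 ± 108.9 CPM. GAPDH was not called (-0.10, adjusted p = 0.343). HPRT1 and PGK1, both on the X chromosome, were the largest falls of the list. Of 76 tested ribosomal proteins 23 were lower and 2 higher (median -0.11, with 1 higher without sgCont replicate 3). Their share called, 32.9%, was near the 31.0% of all tested genes. The lists of ribosomal proteins and of the respiratory chain were led by genes of the X chromosome. RPS4X fell from 1300 ± 32.6 to 564.5 ± 19.2 CPM, RPL39 from 36.1 ± 4.9 to 17.2 ± 3.89, COX7B from 186.7 ± 13.8 to 62.6 ± 10.2 and NDUFA1 from 60.1 ± 5.48 to 19.2 ± 4.24, while NDUFS8 on chromosome 11 rose from 76.5 ± 4.4 to 164.7 ± 25.3. NDUFA1 shares 44.5% of its exon bases with a gene on the other strand. RPL13 on chromosome 16 rose from 626.8 ± 61.5 to 1116 ± 74.7 CPM.

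A large part of the X chromosome was lower in sgCont than in siCont. Of 474 tested genes of the chromosome, 188 (39.7%) were lower and 26 higher, with a median of -0.49, the lowest of all chromosomes. In windows of about 100 neighbouring tested genes, the first 2 windows had medians of -0.09 and 0.16. The next 3, from 55000357 to 155943769 (GRCh38), had medians of -0.89, -0.95 and -0.88, with 49 of 95, 57 of 95 and 60 of 94 genes lower. HPRT1, which salvages purines, stood at 83.0, 75.1 and 68.1 CPM in siCont and 26.7, 26.0 and 31.0 in sgCont (log2 difference -1.43, SE 0.13), and LAMP2 at 147.3, 157.8 and 144.6 against 57.0, 57.1 and 57.1 (-1.39, SE 0.10).

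The other groups did not show this fall. In the same 3 windows the medians of sgBACH1 minus siBACH1 were -0.04, -0.11 and -0.08. Those of siBACH1 minus siCont were 0.06, -0.01 and -0.02 and those of sgBACH1 minus sgCont 0.67, 0.63 and 0.74, and both comparisons share a control group with the one described here. Over these windows sgCont was the group with the level unlike the others. The medians were -0.72, -0.85 and -0.85 once GC content and length were offset and -0.86, -0.93 and -0.83 without siCont replicate 2. HPRT1, PGK1 and RPS4X were at -0.08, 0.05 and -0.01 in the BACH1-targeted pair, none of them called.

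Elsewhere the medians of windows were smaller. Of 141 windows 5 lay above 0.3 and 6 below -0.3, 3 of the latter on the X chromosome. On chromosome 16 the last 2 windows, from 67430652 to 90044975, had medians of 0.46 and 0.59, and in the final one 50 of 93 genes were higher and 1 lower. Their medians in the BACH1-targeted pair were 0.25 and 0.03. The last window of chromosome 3 (0.36), the fifth of chromosome 11 (0.40) and the ninth of chromosome 19 (0.31) were higher, and windows of chromosomes 12 (-0.36), 4 (-0.34) and 6 (-0.31) lower. Without siCont replicate 2 those of chromosomes 12, 19 and 4 fell short of 0.3 in size, at -0.23, 0.24 and -0.29. In the BACH1-targeted pair the windows of chromosomes 3, 11 and 19 had medians of 0.12, 0.23 and 0.55 and those of chromosomes 12, 4 and 6 had medians of -0.40, -0.04 and -0.20. By base composition, protein-coding genes below 40% GC had a median of -0.31 and those of at least 60% GC one of 0.24, while in the BACH1-targeted pair these were 0.01 and 0.04. With the offsets for GC content and length, the medians of the windows on chromosomes 11, 12, 19, 4 and 6 became 0.19, -0.17, 0.19, -0.19 and -0.13, and those on chromosomes 3 and 16 were 0.38, 0.38 and 0.51.

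**Figure D5:**
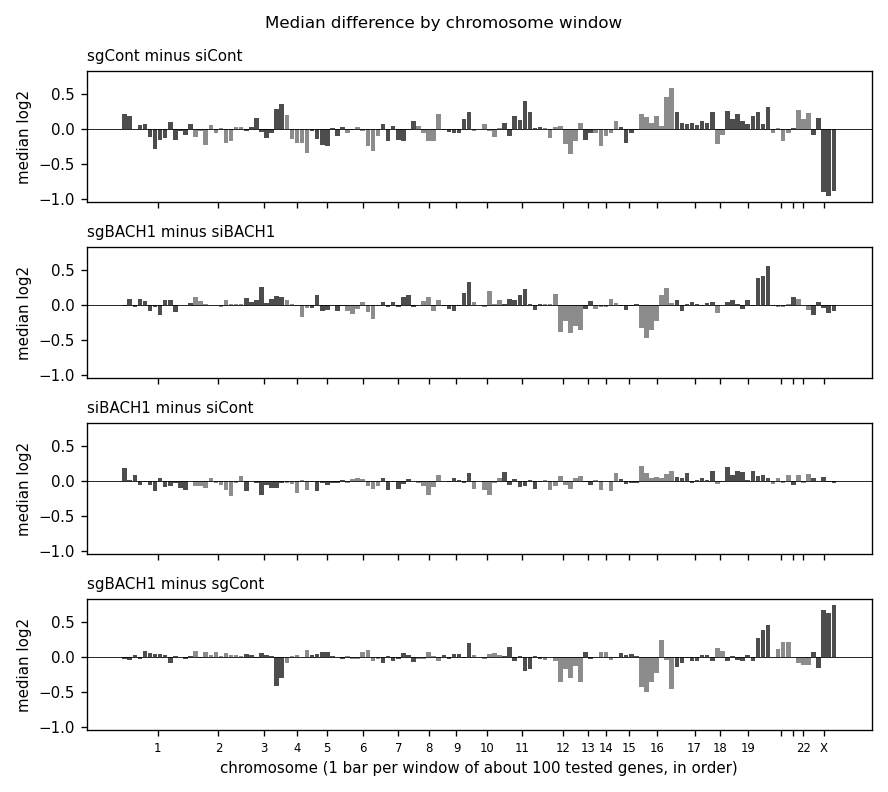
Median log2 difference per window of about 100 neighbouring tested genes along the genome, in 4 panels for the comparisons of the 4 groups. The last 3 windows of the X chromosome lie between -0.95 and -0.88 in the panel of sgCont against siCont and between -0.11 and -0.04 in that of sgBACH1 against siBACH1.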

How the data were processed

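The deposited values are raw counts of reads per gene in 1 table per experiment. The tools named in the submitters' processing notes are SAMtools and the counter HTSeq 0.9.1, and the build is hg19. The sources used here give neither the aligner nor the use of strand in counting, so reads of overlapping or near-identical genes cannot always be assigned. Total RNA was depleted of rRNA and sequenced on an Ion Proton, per the labels' protocols. They give 16 PCR cycles and fragments of 100 to 200 bp for every library. Columns were matched to samples by the labels, and groups come from the sample titles. The tables were joined over 57820 gene identifiers. Symbols came from a reference of current names for 51996 of them and otherwise from GENCODE 29, which holds 52338. Coordinates, exon lengths and GC content are those of GENCODE 29 on GRCh38, and no hg19 coordinate was used. Of 174 genes of the text looked up in that annotation, 64 share some exon bases with another gene, and RMRP and 7SK share nearly all of theirs with a second entry of their own.

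Counts of the 6 control libraries (13099706 to 18773195 per library, summed over genes) were filtered by filterByExpr (minimum count 10), scaled by TMM and tested in R 4.3.3 with the two-sided quasi-likelihood test of edgeR 4.0.16 and Benjamini-Hochberg adjustment over all tested genes. Genes were called at an adjusted p below 0.05. The standard error of a log2 difference is its size over the square root of F. CPM are counts over TMM-scaled library size. For a group without a count, 3 counts over its libraries served as the floor of the fold, and intervals on counts cover counting error only. siBACH1 and sgBACH1 were tested in their own fit, and the difference of the differences in a fit of 12 libraries with 4 group means. The alternatives were other scalings, filters and tools (DESeq2 1.42.0, limma 3.58.1), a replicate block, offsets for GC content and exon length, protein-coding genes alone and each library left out. The steps were also tested on simulated counts.

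The libraries, gene lists and tests were chosen with earlier results of these data known. Genes were named by rule: BACH1; the 12 largest called differences each way among those whose mean log2 CPM reached 1, with separate groups and a proper symbol; the 15 highest levels per kilobase; the 10 smallest differences at 100 CPM or more; in each list up to 6 members with the largest called changes, or any member of a list of 15 or fewer; and the cell type markers. Others are said to be named after their values were seen. Not every gene selected this way is reported. Lists were not tested as sets. They held 1229 entries in 47 lists, of which 1179 matched an identifier.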

Additional observations from a re-analysis of the deposited data

Results flagged for a closer look

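For the named genes below, the difference between the experiments was not the same in control and in BACH1-targeted cells, by the interaction test of edgeR over 12 libraries (the sgBACH1 minus siBACH1 difference less the sgCont minus siCont difference, log2 scale, adjusted p below 0.05). BACH1 itself differed by 2.66 (adjusted p = 6.77e-09), with 1498 counts over siBACH1 and 10638 over sgBACH1. Genes that were much higher in sgCont than siCont gave negative values: CELF2 -5.85 (adjusted p = 0.000516), FAT4 -5.54 (adjusted p = 0.00474), EPHB6 -3.25, KLF12 -3.05, MITF -2.65 (adjusted p = 0.0494) and LOXL4 -1.12. Genes that were much lower in sgCont gave positive values: TCIM 7.22 (adjusted p = 0.0136), IGFBP2 6.44, ANGPTL4 6.13 (adjusted p = 6.65e-06), CEACAM5 4.24 (adjusted p = 2.82e-10), CHRM4 4.21, FHL1 4.16, ABTB3 3.02, SNORA30 2.79, RNU5D-1 2.75, SLC44A4 2.44 and SNORA77 1.98 (adjusted p = 0.0472). Apart from BACH1, each of these genes had a smaller or a reversed difference in BACH1-targeted cells, and choosing the genes with the largest differences between the controls favours that outcome. For ANKRD1, with 40 counts over sgBACH1 against 2754 over sgCont, the value was -5.89 but the test did not call it (adjusted p = 0.103).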

How the results depend on the processing

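No alternative moved a comparison's count of calls by 1.5 times or more. Calls between the controls ranged from 3218 to 4708 with 1 library left out, were 4011 with offsets for GC content and exon length (3320 shared with the reported calls), and 5909 with all 12 libraries in the fit. Replicate numbers did not pair the groups: same-numbered libraries had correlations of deviations of 0.012, 0.031 and 0.04, though each library correlated best with its own number. With the replicate block 4388 genes were called, 4171 of them shared, and 3631 with the block and the offsets. Without a filter 33399 genes were tested and the median of all genes shifted to -0.15, and the other scalings moved it by 0.03 at most. Calls that turned direction were few. With the offsets RMRP was at 0.05, also with the block, and at 0.06 without siCont replicate 2 as well. RNY1 was at 1.11 in both of the former fits and 1.16 in the latter, where 7SK was at 0.29 and MT-RNR2 at 0.21. PLCB3 was at -0.24 among protein-coding genes with the offsets. The last of these and the fits without siCont replicate 2 that used offsets were chosen after seeing the data. The cause was not tested. BACH1 was higher in sgCont in every alternative run. It was not called in the reported fit and was called in 8 alternatives (0.31 to 0.7). Having 3 libraries a group limits the precision, and single-copy counts of repeated RNAs remain uncertain at any depth.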
